A study of Mus musculus with 9 samples.

Results

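The Notch pathway genes examined here were 10 genes of mouse retinal organoids: the receptor gene Notch1, the ligand genes Dll1, Dll3, Dll4 and Jag1, the DNA-binding factor gene Rbpj, and the basic helix-loop-helix genes Hes1, Hes5, Hes6 and Hey1. They were chosen by gene name, with no measured value in the rule, though earlier results of these data were known. They were read by 15 probes. The arrays named 37284 genes in all, of which 23594 passed the filter on dim probes and were tested, and all 10 Notch pathway genes were among them. Each of the 10 had a probe that was well above background on all 9 arrays.

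Retinal organoids are retina-like tissues that form in floating aggregates of pluripotent stem cells, here mouse ES or iPS cells. There were 3 lines: wild type (WT), a Bhlhb4 knockout (B4KO, the gene now called Bhlhe23) and an Islet-1 knockout (Isl1KO), both engineered to have fewer bipolar cells, the interneurons between photoreceptors and the inner retina. Organoids of each line were taken at 3 differentiation days, day 10 (DD10), day 16 (DD16) and day 23 (DD23), with 5 pooled into the 1 sample per line and day, and each sample was measured on 1 single-colour array. The number of clones behind each line and the cell type it started from, ES or iPS, are not given by the labels.

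Notch signalling passes between touching cells. A ligand of the Delta or Jagged family on one cell binds a Notch receptor on its neighbour, the receptor is cut, and its inner part enters the nucleus, joins Rbpj and turns on repressor genes such as Hes1, Hes5 and Hey1. In the developing retina this signalling keeps progenitor cells dividing and holds back their differentiation into neurons, while proneural factors such as Neurog2 raise ligand genes in cells about to differentiate. Hes6 is an atypical family member that opposes Hes1 and is expressed in differentiating neurons, and Dll3 differs from the other Delta ligands in that it acts mainly inside the cell and does not activate receptors of neighbours.

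The sequences of 2 Notch1 probes are shown because they gave different results, as described below for the lines. Both are 60 bases long and lie on chromosome 2, minus strand, in build mm9 of the array design. The probe used for the gene value, at chr2:26319440-26319499, was designed on a RefSeq transcript and holds 33 G or C bases. The other, at chr2:26354049-26354108, was designed on an Ensembl transcript and holds 27. The exon that each falls in was not analysed here.
Notch1 RefSeq transcript probe: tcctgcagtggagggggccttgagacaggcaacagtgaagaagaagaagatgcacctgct
Notch1 Ensembl transcript probe: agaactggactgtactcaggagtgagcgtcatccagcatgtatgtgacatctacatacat

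Promoters are shown for Hes5 and Dll3, whose signals moved together over the days, and for Rbpj, whose protein binds the core motif searched. Promoter sequences, 250 bases before to 50 after a start site, were taken from RefSeq (GRCm38.p6) and were matched for 8 of the 10 genes, with 11 start sites; Hes1 and Hey1 had no entry. In capitals is the core motif of Rbpj, TGGGAA, or TTCCCA on the other strand. Of 32851 mouse promoters of this length, 25.6% held it on one strand or the other. The Hes5 promoter (chr4:154960673-154960972, plus strand) held it at 226 to 221 and at 82 to 77 bases before the start. The first of 2 Rbpj start sites (chr5:53590096-53590395, plus strand) held it at 149 to 144 and at 65 to 60 bases before the start. The Dll3 promoter (chr7:28301736-28302035, minus strand) did not hold these letters in this window.
Hes5: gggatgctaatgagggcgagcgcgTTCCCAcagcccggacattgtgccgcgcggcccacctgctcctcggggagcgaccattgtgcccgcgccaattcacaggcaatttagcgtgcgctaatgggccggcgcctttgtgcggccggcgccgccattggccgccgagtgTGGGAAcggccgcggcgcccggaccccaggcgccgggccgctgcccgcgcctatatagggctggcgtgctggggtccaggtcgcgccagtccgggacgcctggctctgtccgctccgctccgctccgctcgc
Rbpj: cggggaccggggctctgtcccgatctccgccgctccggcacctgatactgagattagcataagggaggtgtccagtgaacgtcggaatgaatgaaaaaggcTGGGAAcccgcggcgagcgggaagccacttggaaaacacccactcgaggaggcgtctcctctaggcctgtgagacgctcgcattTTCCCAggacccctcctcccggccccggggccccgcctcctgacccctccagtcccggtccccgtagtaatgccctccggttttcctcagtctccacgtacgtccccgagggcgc
Dll3: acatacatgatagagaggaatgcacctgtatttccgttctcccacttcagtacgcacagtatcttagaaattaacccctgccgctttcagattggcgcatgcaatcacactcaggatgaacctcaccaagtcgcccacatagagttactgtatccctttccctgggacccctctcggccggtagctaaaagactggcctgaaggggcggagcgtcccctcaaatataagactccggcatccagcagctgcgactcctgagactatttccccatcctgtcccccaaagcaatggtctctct

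Of the 11 promoters, 3 held the Rbpj core: that of Hes5 and both of Rbpj, which overlap. The N-box, CACNAG or CTNGTG on the other strand, which is bound by Hes repressors, was found in 4 of the 11, at Notch1, Dll4, one of the Dll1 start sites and one of the Hes6 start sites, against 42.5% of all promoters. No window held both motifs. These matches are letters in a window, and no binding was measured.

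Levels below are log2 of the array's processed signal minus the log2 of its 75th percentile. A level of 0 is the signal of the probe at that percentile. Levels can be compared between arrays for one probe, but between genes they do not compare amounts of RNA. In a summed signal of a list, the brightest probes weigh most. The arrays had from 57.3% to 67.8% of gene spots well above background and no saturated spot, and precision is limited by how few arrays there were. Differences were fitted with limma over all 9 arrays with line and day as additive terms, so that each day is represented by 3 arrays and each line by 3. A standard error (SE) here measures how far the lines departed from a shared course over the days, and p-values were adjusted over all 23594 genes, with 0.05 as the threshold. RNA of whole organoids cannot tell fewer cells of a type from less RNA per cell. The 3 arrays of a day lay in 1 array column, so day and column cannot be told apart. The arrays of B4KO were on a slide of their own, so that line and slide cannot be told apart in its comparisons, while WT and Isl1KO shared another.

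**Figure D1:**
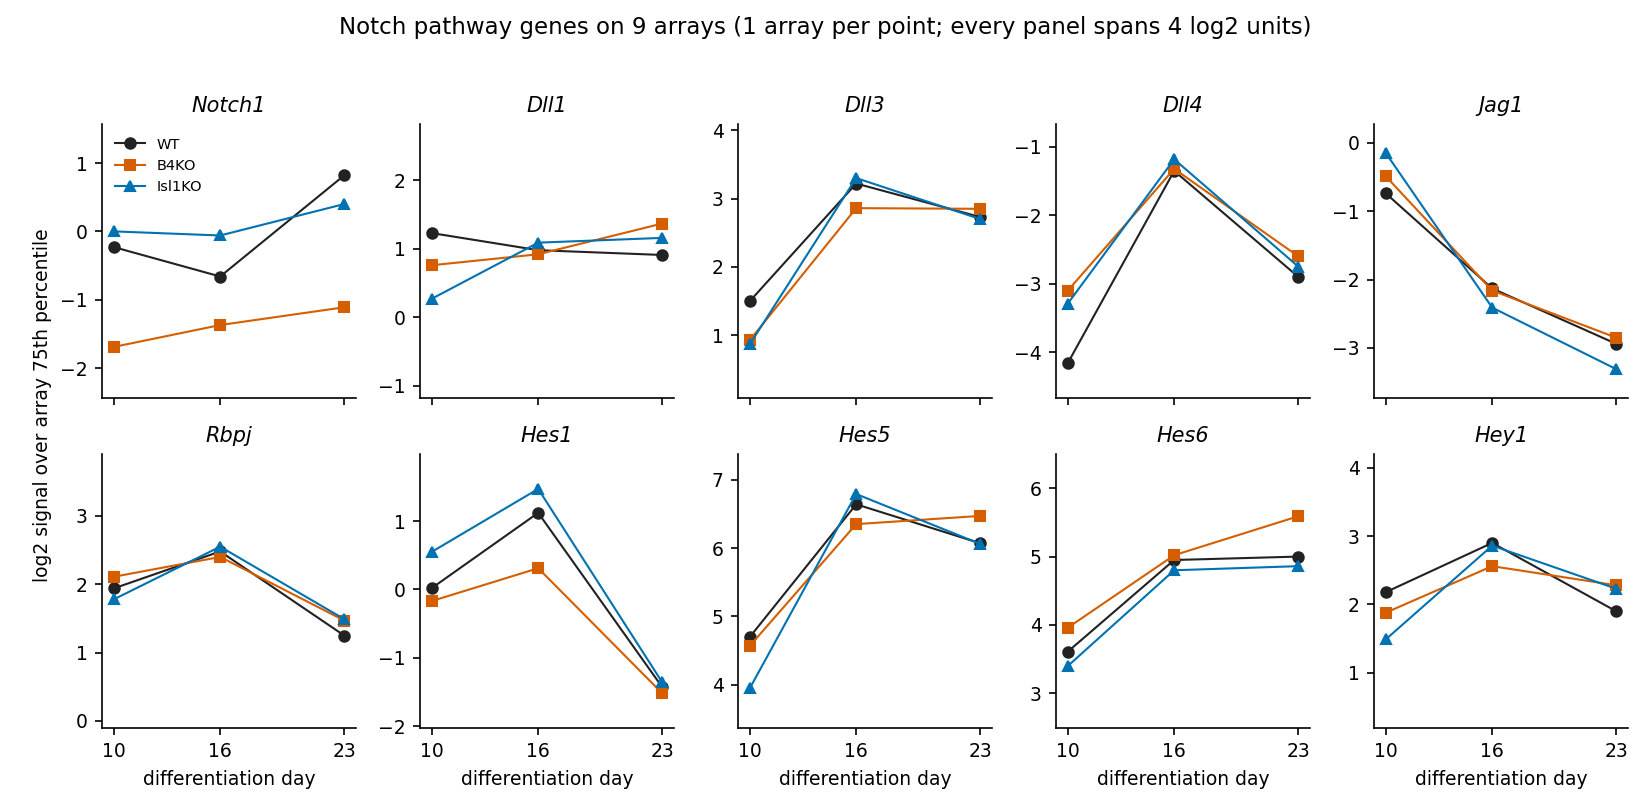
Signal of the 10 Notch pathway genes on 9 arrays. The x axis is the differentiation day and the y axis the log2 signal over the 75th percentile of the array, with 1 point per array, lines joining the samples of one cell line, and the same span in every panel. Dll4 and Hes1 peak at DD16, Jag1 falls from day to day, and B4KO lies apart from the other lines in the Notch1 panel.

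Between DD10 and DD16, 7 of the 10 genes rose (Dll3, Dll4, Rbpj, Hes1, Hes5, Hes6 and Hey1), Jag1 fell, and Notch1 and Dll1 did not pass the test. Of all genes tested, 40.7% passed in this comparison, 21.9% upwards and 18.8% downwards. The median difference of the 10 genes was a log2 of 0.88, beside 0.03 over all genes. Between DD16 and DD23 the direction turned for some of them: Dll4, Rbpj and Hes1 fell, Jag1 fell further, Notch1 rose, and the other 5 did not pass, where 41.2% of all genes did, 19.3% upwards and 21.9% downwards. The median was -0.51, beside 0.01 over all genes. Leaving out the Isl1KO or the WT array of DD16 lowered the count of genes that changed from DD10 to DD16 from 8 to 5, and leaving out the Isl1KO array of DD23 or the WT array of DD16 lowered that from DD16 to DD23 from 5 to 3.

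Over the whole course, from DD10 to DD23, Notch1, Dll3, Dll4, Hes5 and Hes6 rose and Jag1, Rbpj and Hes1 fell, where 60.7% of all genes passed, 31.6% upwards and 29.2% downwards. This comparison uses the same arrays as the previous ones. Over the 9 fits that each left out 1 array, the count that passed ran from 6 to 8. Notch1 passed in 2 of those fits and Dll4 in 7. The second Rbpj probe differed by -0.03 in this comparison. Hes5 ended 3.47-fold and Dll3 3.16-fold above DD10, Hes6 2.81-fold above it, Jag1 5.94-fold and Hes1 2.97-fold below it.

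**Figure D2:**
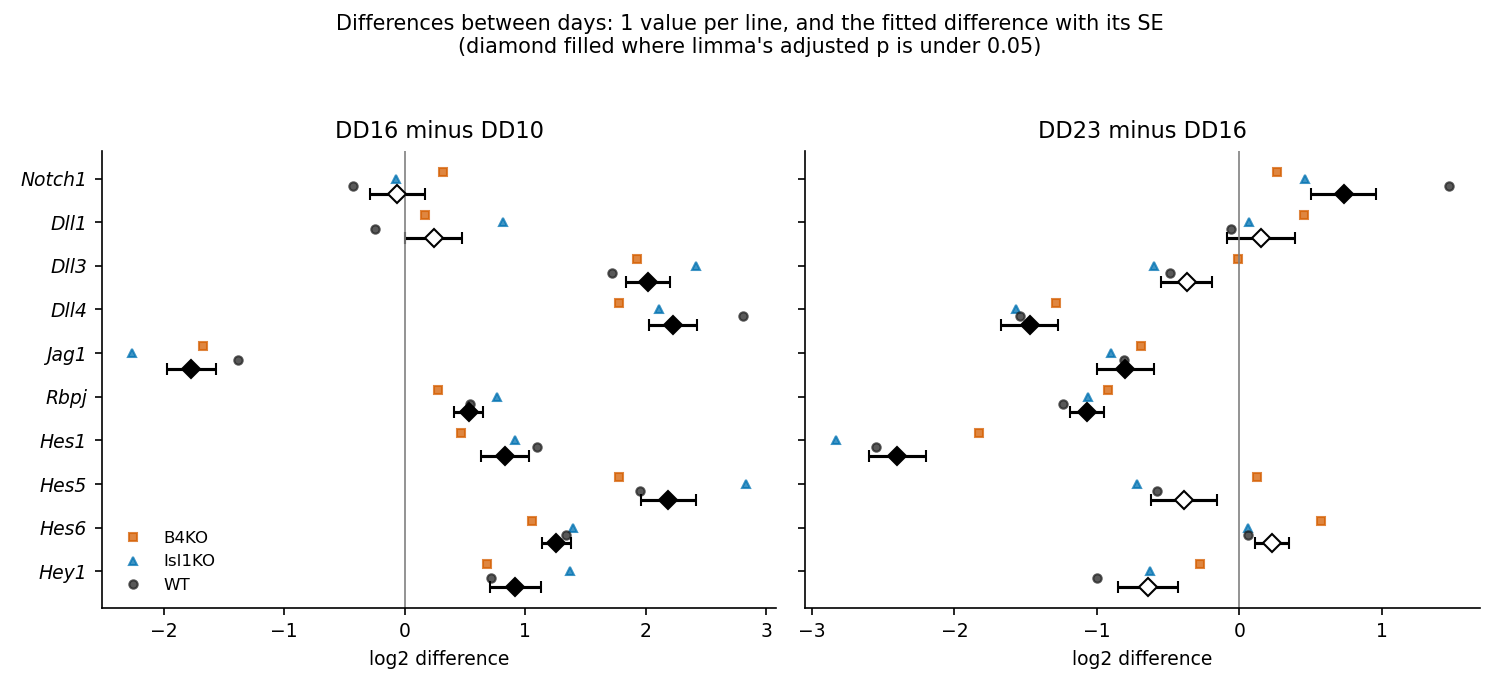
Log2 differences between days for the 10 genes, DD16 minus DD10 on the left and DD23 minus DD16 on the right. Coloured points are the lines, with 1 pair of arrays each, and diamonds the limma difference with its SE as a bar, filled where the adjusted p is under 0.05. Dll3, Dll4 and Hes5 lie near 2 on the left and Hes1 at -2.40 on the right.

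Among the ligands, Dll3 came up early and stayed up. Its level was 1.50 in WT, 0.93 in B4KO and 0.87 in Isl1KO at DD10, 3.22, 2.86 and 3.30 at DD16, and 2.73, 2.85 and 2.70 at DD23. All DD10 values lay below all later ones. The rise from DD10 to DD16 was 4.07-fold (log2 2.02, SE 0.18, limma adjusted p = 0.000996), and the later difference of -0.37 (SE 0.18) did not pass (adjusted p = 0.146).

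Dll4, a ligand of newly differentiating neurons in the retina and of endothelial tip cells in vessels, was highest at DD16. Its level was -4.16 in WT, -3.10 in B4KO and -3.29 in Isl1KO at DD10, -1.35, -1.32 and -1.18 at DD16, and -2.90, -2.60 and -2.75 at DD23. The days did not overlap, with DD16 highest and DD10 lowest in every line. It rose 4.70-fold from DD10 to DD16 (log2 2.23, SE 0.20, adjusted p = 0.00105) and fell 2.76-fold from DD16 to DD23 (-1.47, SE 0.20, adjusted p = 0.00336). It stayed above its DD10 level at DD23 by a log2 of 0.77 (SE 0.20, adjusted p = 0.017), which was 0.50 without the WT array of DD10 and did not pass without the B4KO or the WT array of DD23 (0.79 and 0.66, adjusted p = 0.0503 and 0.0708) or after quantile normalization (0.55, adjusted p = 0.0855).

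Since Dll4 is also a gene of vessels, markers of endothelium were set beside it. Of 12 endothelial markers, 4 to 6 were well above background on an array, and their summed signal was 6.43 to 8.95 times the 75th percentile at DD10, 12.7 to 13.9 at DD16 and 15.3 to 18.2 at DD23. Cdh5, the cadherin of vessel walls, was well above background on 1 of the 9 arrays, WT at DD10. Kdr, a receptor for vascular growth factor that retinal progenitors also express, was well above background on all 9 arrays. It did not fall after DD16 (0.32, SE 0.14, limma adjusted p = 0.127), and Pecam1 lay between -4.03 and -2.21. Of the 5 endothelial markers tested, 3 rose and 0 fell by DD16 (median 0.50), where 21.9% of all genes rose and 18.8% fell. From DD16 to DD23, 1 rose and 0 fell (median -0.06), where 19.3% of all genes rose and 21.9% fell. Kdr is part of the summed signal and weighs heavily in it. Its level was 1.32 to 3.39 on the 9 arrays, where the median of the 12 markers was -6.87 to -4.38. It rose by 1.25 by DD16 (SE 0.14, limma adjusted p = 0.00218). The part of vessel cells in the Dll4 course was not tested.

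Jag1, the Jagged ligand among them, went down at each step. Its level was -0.74 in WT, -0.49 in B4KO and -0.15 in Isl1KO at DD10, -2.13, -2.16 and -2.41 at DD16, and -2.94, -2.85 and -3.31 at DD23. The days did not overlap, and all lines kept the same order of days. It fell by 1.77 on the log2 scale to DD16 (SE 0.20, adjusted p = 0.00202) and by 0.80 more to DD23 (SE 0.20, adjusted p = 0.0216). The second step did not pass without the B4KO or the WT array of DD16 or the Isl1KO array of DD23 (-0.80, -0.70 and -0.63, adjusted p = 0.0659, 0.0895 and 0.0811), nor with WT and Isl1KO alone (-0.85, adjusted p = 0.0887).

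Dll1, the ligand of retinal progenitors and their newly born daughters, showed no shared course. Its level was 1.23 in WT, 0.76 in B4KO and 0.27 in Isl1KO at DD10, 0.98, 0.92 and 1.09 at DD16, and 0.91, 1.37 and 1.16 at DD23. WT was highest at DD10 and lowest at DD23, while B4KO and Isl1KO were lowest at DD10, and the days overlapped. The differences were 0.24 (SE 0.24, adjusted p = 0.456) and 0.15 (SE 0.24, adjusted p = 0.651). From DD10 to DD23 the difference was 0.40 (SE 0.24, adjusted p = 0.207), and without the WT array of DD10 it was 0.70 and passed (adjusted p = 0.0238). A second Dll1 probe was well above background on 0 of the 9 arrays and was not read.

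Rbpj, the DNA-binding partner of the cut receptor, rose a little and then fell below its starting level. Its level was 1.94 in WT, 2.11 in B4KO and 1.78 in Isl1KO at DD10, 2.48, 2.40 and 2.55 at DD16, and 1.25, 1.47 and 1.49 at DD23. DD16 was highest and DD23 lowest in every line, with no overlap between days. The rise was 1.45-fold (log2 0.53, SE 0.12, adjusted p = 0.0159), and without the Isl1KO or the WT array of DD16 it was 0.48 or 0.49 and did not pass (adjusted p = 0.0688 and 0.0629). The fall was 2.10-fold (-1.07, SE 0.12, adjusted p = 0.00192). A second Rbpj probe rose by 0.82 and fell in the same steps, but its DD23 signal was at its DD10 level (-0.03, adjusted p = 0.86), where the first probe was lower by -0.54 (SE 0.12, adjusted p = 0.00856).

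The target genes took different courses. Hes1, the repressor that oscillates in dividing neural progenitors, was 0.02 in WT, -0.17 in B4KO and 0.55 in Isl1KO at DD10, 1.12, 0.31 and 1.47 at DD16, and -1.43, -1.52 and -1.36 at DD23. The DD23 values lay together and below all others, while DD10 and DD16 overlapped between lines, B4KO at DD16 being below Isl1KO at DD10. It fell 5.30-fold from DD16 to DD23 (log2 -2.40, SE 0.20, adjusted p = 0.000961), the largest fall of the 10 genes in that step. The earlier rise of 1.78-fold (0.83, SE 0.20, adjusted p = 0.0193) did not pass without the B4KO, Isl1KO or WT array of DD10 (0.87, 0.89 and 0.73) or the Isl1KO or WT array of DD16 (0.70 and 0.73), with adjusted p between 0.052 and 0.0785 in those fits.

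Hes5, a Notch target of neural progenitors and later of Mueller glia, did not follow Hes1 down. Its level was 4.70 in WT, 4.57 in B4KO and 3.95 in Isl1KO at DD10, 6.64, 6.35 and 6.79 at DD16, and 6.07, 6.47 and 6.06 at DD23. All DD10 values were below all later ones, and DD16 and DD23 overlapped. It rose 4.55-fold (log2 2.19, SE 0.23, adjusted p = 0.00174), and the later difference of -0.39 (SE 0.23) did not pass (adjusted p = 0.221). A second Hes5 probe had the same ups and downs, with a correlation of 0.99 between the probes over the 9 arrays, which share the steps between days.

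Hes6 was 3.61 in WT, 3.96 in B4KO and 3.40 in Isl1KO at DD10, 4.95, 5.02 and 4.80 at DD16, and 5.00, 5.59 and 4.86 at DD23. DD10 lay below the later days in all lines. It rose 2.40-fold by DD16 (log2 1.26, SE 0.12, adjusted p = 0.00122), and was higher at DD23 in all lines by 0.06 to 0.57, a fitted difference of 0.23 (SE 0.12) that did not pass (adjusted p = 0.173) but passed after quantile normalization (0.41, adjusted p = 0.0192).

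Hey1 was 2.18 in WT, 1.88 in B4KO and 1.49 in Isl1KO at DD10, 2.90, 2.56 and 2.86 at DD16, and 1.90, 2.28 and 2.23 at DD23. DD16 was highest in every line, and DD10 and DD23 overlapped. It rose 1.90-fold to DD16 (log2 0.92, SE 0.21, adjusted p = 0.0176), which did not pass without the Isl1KO array of DD10 (0.70, adjusted p = 0.0555) or the Isl1KO or WT array of DD16 (0.81 and 0.88, adjusted p = 0.0736 and 0.0661), nor with WT and Isl1KO alone (1.05, adjusted p = 0.0628). The later difference of -0.64 (SE 0.21) had an adjusted p = 0.0548, and it passed without the Isl1KO or the WT array of DD10 (adjusted p = 0.0343 and 0.0443).

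Notch1, the receptor, depended on the probe. With the RefSeq transcript probe its level was -0.23 in WT, -1.69 in B4KO and 0.00 in Isl1KO at DD10, -0.66, -1.37 and -0.06 at DD16, and 0.82, -1.11 and 0.40 at DD23. WT and Isl1KO lay above B4KO on every array, and within each line DD23 was highest. The rise from DD16 to DD23 was 1.66-fold (log2 0.73, SE 0.23, adjusted p = 0.0484), of which WT gave 1.47, Isl1KO 0.46 and B4KO 0.26. It passed in 1 of 9 fits that each left out 1 array, the one without the B4KO array of DD16, and was 0.45 without the WT array of DD16 or of DD23. From DD10 to DD23 it was 0.68 (adjusted p = 0.0452), passed in 2 of those 9 fits, and was 0.40 without the WT array of DD23 (adjusted p = 0.12).

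With the Ensembl transcript probe, Notch1 was -4.24 in WT, -3.57 in B4KO and -4.63 in Isl1KO at DD10, -3.29, -2.98 and -2.91 at DD16, and -2.87, -2.35 and -2.93 at DD23. DD10 was lowest in every line. This probe rose from DD10 to DD16 by 1.08 (adjusted p = 0.00961), where the RefSeq transcript probe differed by -0.06 (SE 0.23, adjusted p = 0.861), and its later difference was 0.34 (adjusted p = 0.226). It was well above background on 8 of the 9 arrays. Across those 9 arrays the probes had a correlation of -0.08, so they did not read alike.

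**Figure D3:**
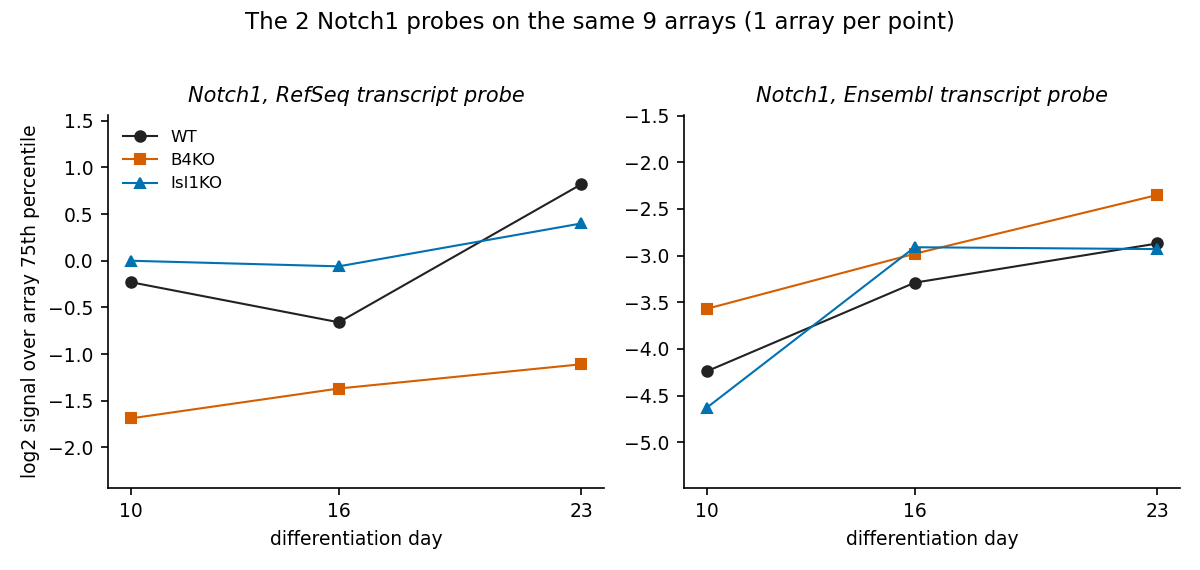
Signal of both Notch1 probes on the same 9 arrays, the RefSeq transcript probe on the left and the Ensembl transcript probe on the right. The x axis is the differentiation day, the y axis the log2 signal over the 75th percentile of the array, with 1 point per array. B4KO is the lowest line on the left at each day and the highest at DD10 and DD23 on the right.

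Set against WT, the Isl1KO samples differed in none of the 10 Notch pathway genes by limma: 0 passed, and 0 had an unadjusted p under 0.05. Over all genes 1, Cdkn1c, passed (0.00424%), and 1924 had an unadjusted p under 0.05. The fitted differences ran from -0.20 for Dll1 (SE 0.24), Dll3 (SE 0.18) and Hes5 (SE 0.23) to 0.40 for Dll4 (SE 0.20), which had the lowest adjusted p of the 10 (0.659). Dll4 and Hes1 were above WT on all 3 days and Hes6 below it on all 3, by 0.15 to 0.21. These are differences that missed the threshold with 1 array per line and day, which does not show that the lines are alike.

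Of the 10 genes, 1 passed between B4KO and WT: Notch1 was lower with the RefSeq transcript probe, by 1.46, 0.72 and 1.93 log2 units at DD10, DD16 and DD23 (fitted -1.37, SE 0.23, 2.59-fold, adjusted p = 0.009). Of all genes, 22% passed, 18% lower in B4KO and 3.99% higher. With the Ensembl transcript probe Notch1 was higher in B4KO, by 0.31 to 0.68 on the 3 days (fitted 0.50, adjusted p = 0.134). The lower value with the RefSeq transcript probe was called in all 9 fits without 1 array, from -1.65 to -1.09. The G and C content of probes was examined only after seeing the data. With it varied the share of genes lower in B4KO, being 23.9% at 20 or fewer such bases, 12.6% at 21 to 26, 21.2% at 27 to 32 and 31.8% at 33 to 38. Among genes whose probe held 33, as the RefSeq transcript probe does, 26.8% were lower and 9.53% higher, with a median difference of 0. The part of probe composition and slide in the Notch1 difference was not tested.

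The other 9 genes did not pass between B4KO and WT. Hes6 came closest, 0.34 higher (SE 0.12, adjusted p = 0.0957) and above WT on all 3 days. It passed without the B4KO array of DD16 (0.47, adjusted p = 0.0321), with its second probe (0.49, adjusted p = 0.0266), with normexp background correction (0.40, adjusted p = 0.0367) and with a mean-dependent trend of the variance (0.34, adjusted p = 0.0423). Hes1 was below WT on all 3 days, by 0.09 to 0.82 (fitted -0.37, SE 0.20, adjusted p = 0.229).

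Between the knockouts 2 of the 10 Notch pathway genes passed, where 21.9% of all genes did, 18.1% higher in Isl1KO and 3.8% lower. Notch1 was 2.84-fold higher in Isl1KO than in B4KO with the RefSeq transcript probe (log2 1.50, SE 0.23, adjusted p = 0.0061) and differed by -0.52 with the other (adjusted p = 0.128). Hes6 was 1.42-fold lower in Isl1KO (-0.50, SE 0.12, adjusted p = 0.0291), lower on all 3 days. It did not pass in 6 of 9 fits that left out 1 array, those without the B4KO array of DD10 or DD23, any Isl1KO array or the WT array of DD10, where it ran from -0.58 to -0.38. Hes1 was higher in Isl1KO on all 3 days, by 0.16 to 1.17 (0.68, SE 0.20, adjusted p = 0.0565), and passed with normexp, with a mean-dependent trend, among genes well above background on all arrays, and without the B4KO or the Isl1KO array of DD23 (0.60 to 0.88, adjusted p = 0.0247 to 0.0413).

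**Figure D4:**
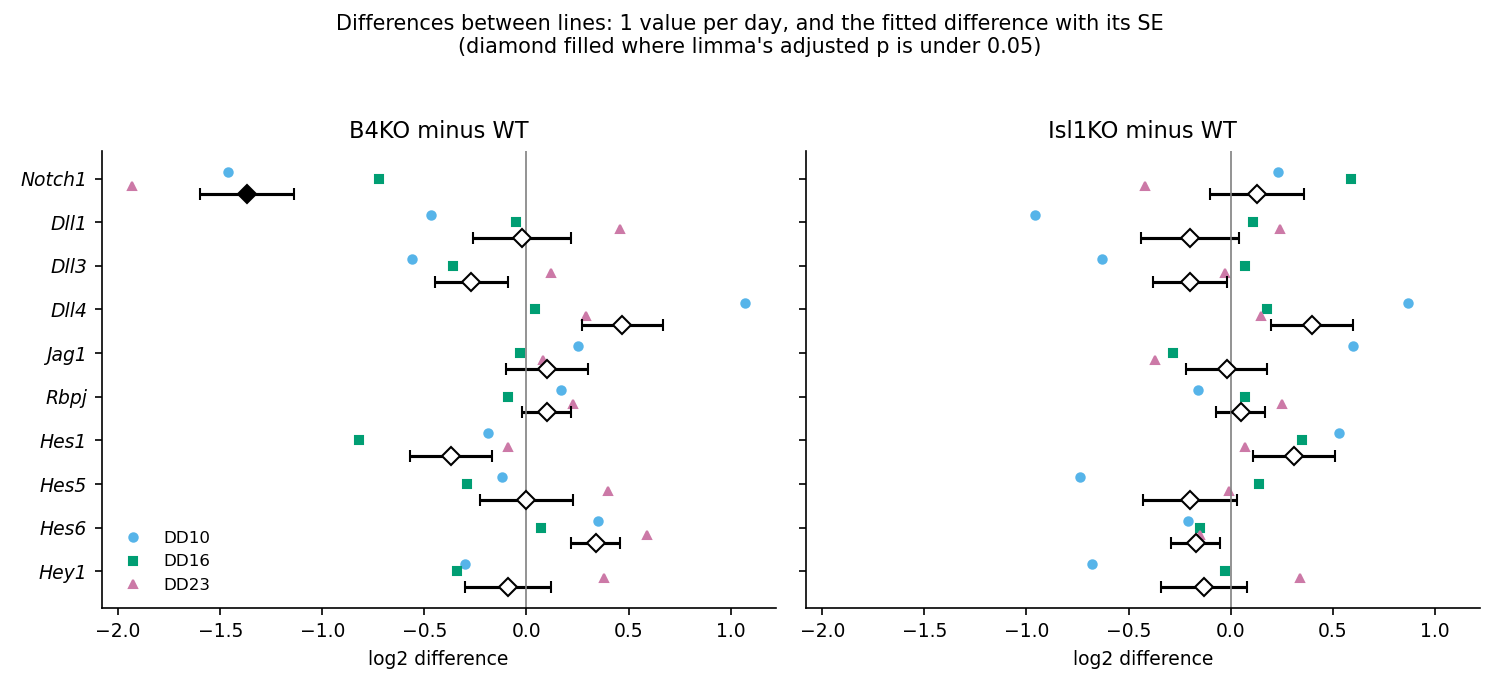
Log2 differences of B4KO from WT on the left and of Isl1KO from WT on the right, for the 10 genes. Coloured points are the days, with 1 pair of arrays each, and diamonds the limma difference with its SE as a bar, filled where the adjusted p is under 0.05. The filled diamond is Notch1 in B4KO, at -1.37 with the RefSeq transcript probe.

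Whether a knockout's difference from WT was particular to one day was tested with an added term, at DD10 and at DD23. By limma 0 of the 10 genes and 0% of all genes passed in each of the 4 tests. Of the 10 genes the departure with the lowest unadjusted p was that of Jag1 in Isl1KO at DD10, where it was 0.60 above WT but 0.28 and 0.37 below it later (departure 0.92, SE 0.18, limma adjusted p = 0.534). Unadjusted p-values under 0.05 were also found at DD10 for Dll1 and Dll4 in Isl1KO (departures -1.13 and 0.71) and for Dll4 in B4KO (0.90), and for 1627 of all genes in Isl1KO and 2059 in B4KO. At DD23 there were 0 among the 10 genes, with 1161 of all genes in Isl1KO and 1429 in B4KO.

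Other genes of the pathway were grouped by role in 7 lists of 67 genes, of which 66 were tested. From DD10 to DD16, 21 rose and 18 fell, and from DD16 to DD23, 12 rose and 22 fell, with medians of 0.13 and -0.22. These counts, and those of each list below, are to be read against the 40.7% and 41.2% of all genes that passed. In the first step 21.9% of all genes rose and 18.8% fell, and in the second 19.3% rose and 21.9% fell.

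The other receptors fell at both steps. Notch3 fell by 1.10 on the log2 scale (SE 0.11, adjusted p = 0.00142) and then by 0.87 (SE 0.11, adjusted p = 0.00263), and Notch4, best known from vessels, by 0.98 and 0.77. All 3 of Notch2, Notch3 and Notch4 passed in both steps. Of the other ligand genes, Dlk1, a noncanonical ligand, rose 6.07-fold by DD16 (log2 2.60, SE 0.22, limma adjusted p = 0.000969). Jag2, Dlk1, Dlk2 and Dner were all higher at DD23 than at DD10. In that comparison 60.7% of all genes passed, 31.6% upwards and 29.2% downwards.

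Of 13 genes that modify ligands and receptors, 7 rose and 3 fell by DD16. Neurl1a, a ubiquitin ligase of the Neuralized family that acts on ligands, rose by 1.48 and then by 1.70, and Fbxw7, part of the ligase that marks the cut receptor for breakdown, rose 2-fold in the first step. Of 10 genes of receptor cleavage, 1 rose and 2 fell by DD16 and 3 fell from DD16 to DD23, among them Adam10, the protease of the first activating cut (-0.20 and -0.46). Of 18 nuclear cofactors, 3 rose and 4 fell, then 3 rose and 7 fell. Tle1, a corepressor that Hes proteins recruit, fell by 1.08 and by 1.20.

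Of 12 tested targets and related genes, 4 rose and 6 fell by DD16, and then 2 rose and 5 fell. Hes2 rose 19.5-fold (log2 4.28, SE 0.15, adjusted p = 0.000149) and then fell by 1.60. Heyl was not well above background on any DD10 array and was at least 6.31-fold higher at DD16. Its limma adjusted p of 0.000364 belongs to the fitted log2 difference of 3.75, made without that bound. Id2 and Id3, inhibitors of helix-loop-helix factors, fell by 1.56 and 2.04 in the first step, and Ccnd1, a cyclin of dividing progenitors, rose by 1.69 and then fell by 2.47.

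Among the proneural factors, Neurod4 rose 20.9-fold by DD16 (log2 4.38, SE 0.34, adjusted p = 0.000707), Olig2 10.8-fold, Neurod1 by 2.53 and Neurog2 by 2.32. Later they parted: Neurod1 and Neurod4 rose again, by 1.42 and 1.22, while Atoh7, the factor of ganglion cell fate, fell 23-fold (-4.53, SE 0.39, adjusted p = 0.00106), and Neurog2 and Olig2 fell.

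**Figure D5:**
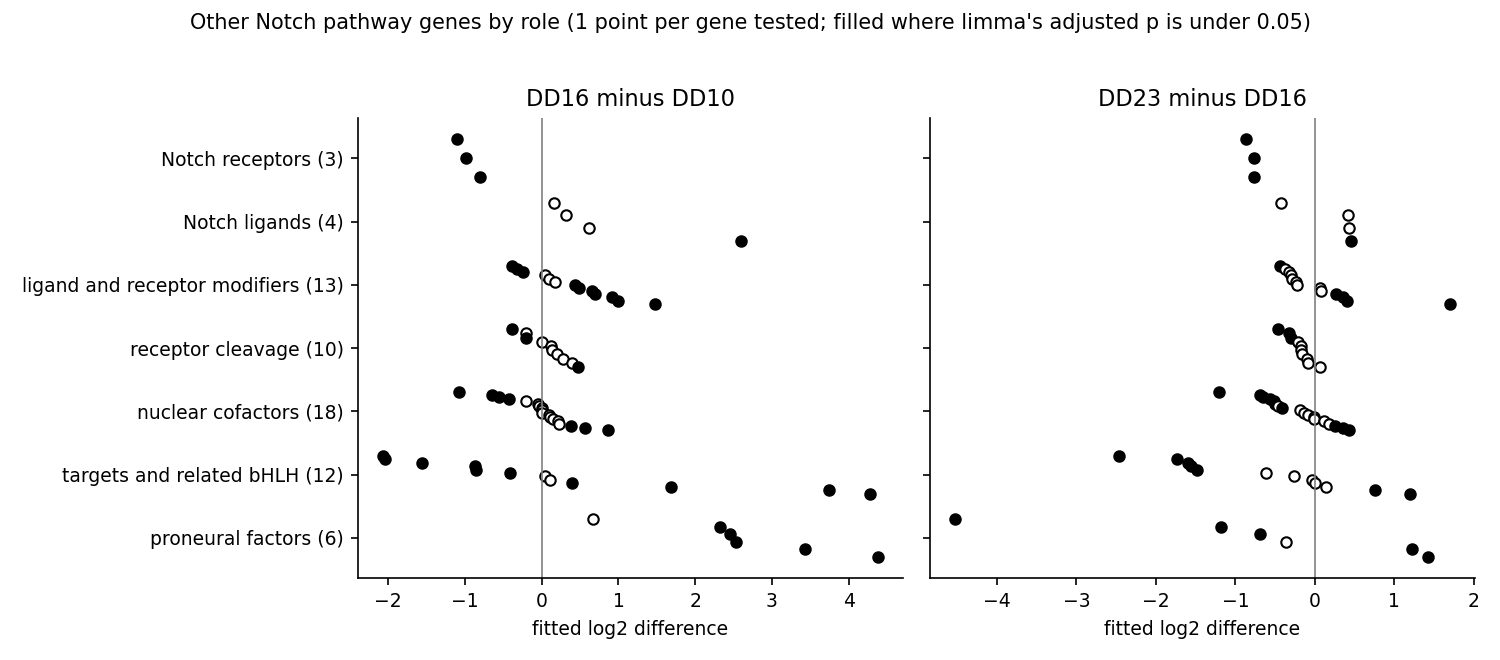
Fitted log2 differences of the other pathway genes by role, DD16 minus DD10 on the left and DD23 minus DD16 on the right, with 1 point per gene, filled where limma's adjusted p is under 0.05. The number tested is given in brackets, and Heyl and Hey2, each not well above background on any array of a day compared, are plotted at their fitted value. All 3 receptors lie below 0 in both panels.

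For Isl1KO against WT, 0 of these 66 genes passed, where 0.00424% of all genes did. For B4KO against WT 5 passed, where 22% of all genes did, 3.99% higher in B4KO and 18% lower. Those were Maml1, Maml2 and Snw1, coactivators of the Notch complex, which were higher by 0.29, 0.47 and 0.39, and Tle2 and Hes7, which were lower by 0.56 and 0.70. Between the knockouts 2 of the 66 were higher in Isl1KO and 4 lower, where 18.1% and 3.8% of all genes were.

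Cell type markers moved with the days as well. Their counts are to be read against all genes, of which 21.9% rose and 18.8% fell by DD16. From DD16 to DD23, 19.3% of all genes rose and 21.9% fell. The summed signal of 18 cell cycle genes was 232 to 293 times the 75th percentile at DD10, 153 to 172 at DD16 and 41.7 to 81 at DD23, with 11 of them falling in the first step and 18 in the second. Of 12 progenitor markers, 6 rose and 3 fell by DD16 and 9 fell from DD16 to DD23, when Hes1, Rbpj and Dll4 fell; their sum was 105 to 205, 217 to 220 and 107 to 135. The Mueller glia list, of which Hes5 is no member, had sums of 120 to 148, 211 to 212 and 171 to 220. Of its 12 genes, 7 rose and 2 fell by DD16 (median 0.74), and 6 rose and 2 fell from DD16 to DD23 (median 0.62). Of its defining markers, Rlbp1 was lowest at DD16 in every line, Aqp4 rose by 0.32 by DD16 (SE 0.10, adjusted p = 0.0474) and differed by -0.26 later (adjusted p = 0.0818), and Glul did not pass in either step. The photoreceptor list went from 1.82 to 4 at DD10 to 295 to 360 at DD23, and Crx, its defining factor, rose 17.5-fold by DD16. The part of these shifts in the Notch gene differences was not tested.

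The targeted genes were not read as a check of the lines, since the sources used here do not place the deletions and a probe that lies beside a deletion would be unaffected by it. Isl1 was well above background on all 9 arrays, Isl1KO included, at -1.63 to -0.44 in Isl1KO against -0.60 to 1.45 in WT with its brighter probe. Its other probe, also well above background on all 9, was -0.92 to 0.1 in Isl1KO and -1.25 to 0.85 in WT. Bhlhe23 was well above background on 6 arrays, and was -6.64 to -3.41 in B4KO, -6.56 to -2.95 in Isl1KO and -4.55 to -2.82 in WT.

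As a description of likeness, each of the 10 genes was set beside 13158 genes with established symbols measured on all 9 arrays, by Pearson's correlation over the arrays, which share lines, days and slides. For Hes5 the nearest were Mtmr6, Dll3 and Hpse (0.989, 0.987 and 0.986), so that Dll3 stood second. For Hes6 they were Acot1, Chst3 and Ppp3ca (0.988 to 0.982) and for Dll3 Mmel1, Nxph4 and Kazald1 (0.989 to 0.988). For Dll4 they were Marchf11, Me3 and Abat (0.995 to 0.986), for Jag1 Tmtc3, Caprin1 and Bdh2 (0.996 to 0.994), and for Rbpj Mex3d, Rapgef1 and Poln (0.989 to 0.981). Hes1 was nearest to Rad54l2, Gak and Diablo (0.974 to 0.968), Hey1 to Ppm1k, Klhl7 and Hif3a (0.97 to 0.965) and Dll1 to Proca1, Pxylp1 and Ap3s1 (0.965 to 0.928). Notch1, with the RefSeq transcript probe, was nearest to Pnma2, Akap7 and Treml2 (0.996 to 0.984).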

How the data were processed

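RNA of 9 retinal organoid samples, 1 per line and day, was hybridised to single-colour Agilent arrays. The submitters' processing notes name Agilent Feature Extraction 12.0.3.1 for the scanner files. The intensity used, gProcessedSignal, was background-subtracted and detrended by the authors' software, with no normalization between arrays, per the file headers, which also give 0 or 1 flags for spots that were well above background, saturated or outliers. In the deposited value table, the signal of spots above 1 was the processed intensity divided by 1 constant per array. Probe coordinates are those of build mm9, per the file headers.

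Spots of a probe were averaged, 102 probes flagged as outliers were left out, and of 56605 gene probes 32994 were named through RefSeq accessions (GRCm38.p6) while 23611 kept their file names. Values are log2 ratios of the intensity to the array's 75th percentile. A gene's value was its brightest probe among those well above background on at least 3 of 9 arrays. Genes were tested with limma 3.58.1 in R 4.3.3 (4 residual and 2.01 prior degrees of freedom; 2 residual for terms of a single day), with Benjamini-Hochberg adjustment at 0.05. A group well above background on no array was given a bound: its signal was raised to the lowest well above background. The scripts were tested on simulated data.

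Named genes were the 10 Notch pathway genes, the leading rises and falls of each role list, defining markers, both targeted genes and the 3 nearest genes by correlation; 1 named gene is not reported here. The genes and lists were chosen with earlier results of these data known. Alternatives were quantile normalization, normexp (offset 50), other filters on dim probes, the mean of a gene's probes, a mean-dependent trend, the deposited value table, WT and Isl1KO alone, leaving out each array, and, chosen after seeing the data, the other probe of each gene. The samples are single pools with 1 array per line and day, so there is no spread between replicates. The p-values rest on how far the lines departed from a shared course over the days.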

Additional observations from a re-analysis of the deposited data

How the results depend on the processing

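No paired analysis was possible because the labels give no replicate numbers; the line term of the model already compares days within lines and lines within days. The count of Notch pathway genes that passed from DD10 to DD16 ran from 5 to 8 over the fits that left out 1 array, from DD16 to DD23 from 3 to 5, and from DD10 to DD23 from 6 to 8. With WT and Isl1KO alone it was 3 from DD16 to DD23. For B4KO against WT it was 2 with normexp and with a mean-dependent trend, 0 with the mean of all probes, and 1 to 2 without 1 array. For Isl1KO against B4KO it was 1 with no filter, with the mean of probes and with the other probe, and 1 to 2 without 1 array. For Isl1KO against WT it was 0 throughout.

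Notch1 changed direction with the probe: from DD10 to DD16 it was 0.51 with the mean of probes and 1.08 with the other probe, for B4KO against WT 0.50 and for Isl1KO against B4KO -0.52 with the other probe. The mean of probes gave -0.43 (adjusted p = 0.0951) for B4KO against WT. Over all genes, 9606 passed from DD10 to DD16, and 4899 with WT and Isl1KO alone, 5899 without the Isl1KO array of DD10 and 5917 without that of DD16. For Isl1KO against WT the count was 4548 with no filter, 11 with normexp, 14 with a trend and 3 on their slide alone, where 1 passed in the main setting. For B4KO against WT it was 5193, and 3417 without the WT array of DD10 or of DD23; for Isl1KO against B4KO it was 5157, and 3288 without the Isl1KO array of DD16. Of the genes called between B4KO and WT, 18.1% were higher in B4KO, but 35.4% with normexp, 30.7% among genes well above background on all arrays, 31.2% with a trend and 5.23% with no filter; between Isl1KO and B4KO 82.6% were higher in Isl1KO, and 67.8%, 72.4% and 72.7% with the first 3. The causes were not tested.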

Other observations

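Differences of B4KO from the other lines also moved with the brightness of a gene. Among genes with a mean level below -3, 28.5% were lower in B4KO than in WT and 0.94% higher, with a median difference of -0.39, while above 1 the shares were 9.27% and 7.56% with a median of 0.11. In the class of probes with the most G and C bases, 201 genes, 64.7% were lower in B4KO, with a median of -0.65. Between Isl1KO and WT the median stayed between -0.03 and 0.03 in every class of brightness and between -0.01 and 0.08 in every class of G and C content.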
